A study of Caenorhabditis elegans with 2 samples.

Results

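Peaks of CEH-32 chromatin immunoprecipitation that lay at genes of unspecified noncoding RNA were described in whole worms of the nematode Caenorhabditis elegans. CEH-32, a homeodomain protein related to Drosophila sine oculis, acts in the development of the head. The worms were hermaphrodites of strain OP516 in the fourth larval stage (L4), collected 52 hours after starved first-stage larvae were released. Their genotype was unc-119(tm4063) III with the transgene wgIs516, which encodes CEH-32 with a C-terminal GFP-FLAG tag, and an antibody against GFP was used. There was 1 group of 2 biological replicates from separate biosamples. A second condition or untagged worms were not analysed here. The tagged protein came from a transgene, and the whole animal was used, so strong binding in few cells and weak binding in many cannot be told apart. Library depth is unknown, since the files are peak lists with a signal per peak.

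A peak belonged to the set when its summit in the authors' pooled list was inside, or within 100 bp of, a gene of biotype ncRNA, and over 100 bp from any tRNA, snRNA, snoRNA or piRNA gene. This rule used positions and no signal, and it kept 523 of the 10461 nuclear peaks (10485 peaks with the mitochondrial ones). The pooled list is relaxed and holds background as well as peaks. The authors' optimal list, their reproducible peaks, held 388 nuclear peaks with a pooled signal of at least 81.6. The strongest nuclear peak outside it had 81.5, so among nuclear peaks this list equals a cut on pooled signal. Before the exclusion, 726 summits met the ncRNA distance, and 203 of these were dropped for another small RNA gene nearby.

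The ncRNA biotype is a holding category of the worm annotation for transcripts that have not been placed in a named class. RefSeq gave the product of 7762 of the 7764 such genes as unclassified. Most are short single-exon models without a known function, and many sit in introns, at promoters or on both strands of the same stretch of DNA. A transcription factor's peak at such a gene can mark its promoter, the promoter of a neighbouring protein-coding gene or an enhancer, from which short RNAs are often transcribed. The peak itself does not say which of these it is.

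The sequences that follow are the 101 bp around the summits of 10 peaks of the optimal list, on the plus strand of build ce11, from the RefSeq genome sequence. They were chosen to show the strongest peaks and the motifs treated further on, and are named by the nearest ncRNA gene. Capitals mark GAGAGA and TGATAC or their complements. The first 2 are the strongest peaks of the set and hold neither hexamer.
W05E10.8 (chrV:11704716-11704816): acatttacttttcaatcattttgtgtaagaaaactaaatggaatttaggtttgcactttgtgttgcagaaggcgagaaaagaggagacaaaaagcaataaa
F26F4.14 (chrIII:4899861-4899961): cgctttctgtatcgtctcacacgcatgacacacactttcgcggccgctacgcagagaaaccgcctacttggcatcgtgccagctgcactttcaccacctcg
The next 4 hold GAGAGA, once at F56F3.10 and in longer runs at WBGene00220175 (signal 129) and T10B10.11 (121). The peaks at C14F11.14 (148) and F13D11.7 (139) are stronger than those 2, hold the hexamer 1 time each and are not shown.
F56F3.10 (chrIII:4475615-4475715): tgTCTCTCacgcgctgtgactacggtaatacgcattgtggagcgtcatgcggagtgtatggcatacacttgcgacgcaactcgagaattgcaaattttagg
W06H8.16 (chrV:6224684-6224784): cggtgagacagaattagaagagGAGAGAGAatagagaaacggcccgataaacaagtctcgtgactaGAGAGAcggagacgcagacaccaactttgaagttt
WBGene00220175 (chrIV:16492460-16492560): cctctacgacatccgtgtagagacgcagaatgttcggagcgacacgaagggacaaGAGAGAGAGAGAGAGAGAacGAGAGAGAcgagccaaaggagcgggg
T10B10.11 (chrX:15189379-15189479): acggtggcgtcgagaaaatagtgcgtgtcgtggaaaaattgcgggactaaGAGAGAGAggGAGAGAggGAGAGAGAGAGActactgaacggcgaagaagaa
The last 4 are the optimal ncRNA-gene peaks that hold TGATAC, a core bound by homeodomains of the sine oculis class. None of these 4 also holds GAGAGA.
W05E10.12 (chrV:11705631-11705731): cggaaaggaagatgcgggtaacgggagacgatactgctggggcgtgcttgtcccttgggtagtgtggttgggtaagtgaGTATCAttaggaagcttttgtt
C08B11.11 (chrII:8028323-8028423): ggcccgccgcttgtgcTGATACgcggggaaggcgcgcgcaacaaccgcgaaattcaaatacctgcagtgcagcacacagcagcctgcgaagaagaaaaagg
F44E5.16 (chrII:11756847-11756947): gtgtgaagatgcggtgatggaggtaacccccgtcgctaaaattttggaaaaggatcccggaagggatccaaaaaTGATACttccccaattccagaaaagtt
C05G5.8 (chrX:14744578-14744678): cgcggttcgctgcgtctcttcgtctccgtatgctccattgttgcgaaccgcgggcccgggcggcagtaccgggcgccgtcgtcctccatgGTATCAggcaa

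Summits were dense at the ncRNA genes and less dense with distance from them. Sequence that met the rule covered 2.20 Mb and held 238 summits per Mb (exact Poisson 95% interval 218 to 259), against 101 per Mb (99.3 to 103) over the other 98.1 Mb. Summits of optimal peaks numbered 24.6 per Mb (18.5 to 32.1) at ncRNA genes and 3.41 per Mb (3.05 to 3.79) elsewhere. These intervals cover counting error only, peaks are not replicates, and no test of the difference was made. Inside the genes there were 286 summits per Mb, then 196 at 1 to 100 bp, 166 at 101 to 200 bp and 123 at 201 to 300 bp. From 301 to 10000 bp the density of all summits was 98.0 to 118 per Mb. Optimal peaks numbered 34.9 per Mb inside the genes, 15.4 at 1 to 100 bp, 9.60 at 101 to 200 bp and 8.22 at 201 to 300 bp. At 301 to 400 bp there were 1.89 per Mb (0.229 to 6.84), from 2 peaks. Over the steps from 301 to 10000 bp the values were 0.982 to 3.25. The 3 peaks just inside the limit of 100 bp had signals of 29.9 to 37.5, and the 3 just outside it had signals of 28.7 to 43.5.

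**Figure D1:**
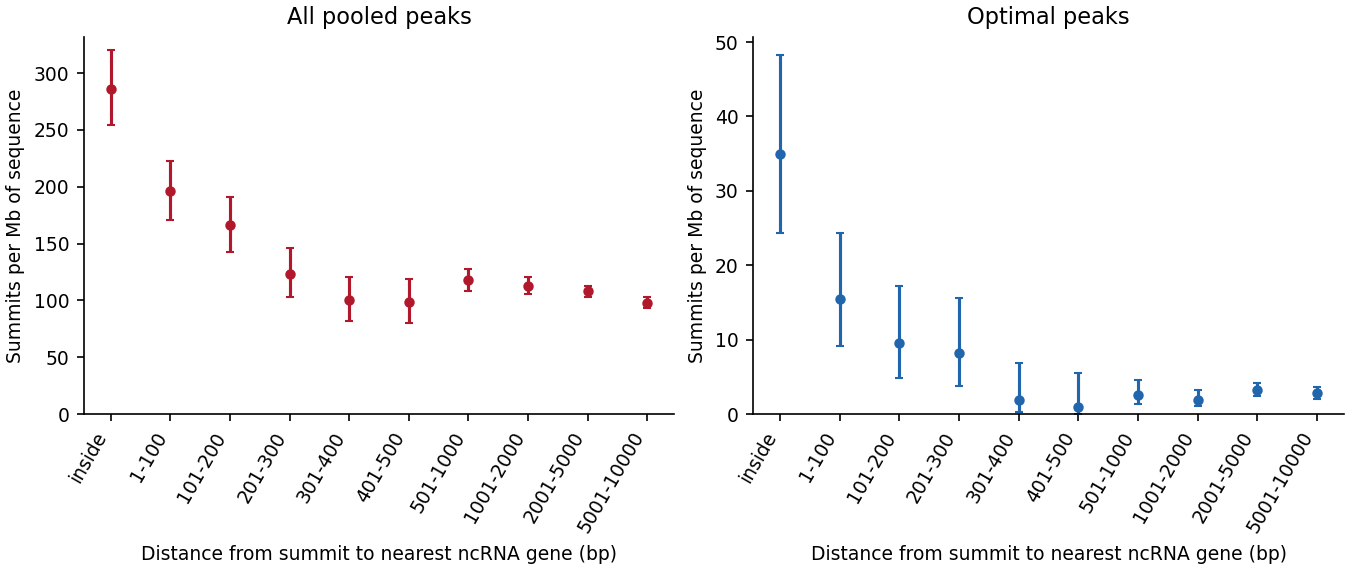
Summits per Mb of sequence (vertical axes) by distance from the nearest ncRNA gene in bp (horizontal axes), for all pooled peaks at left and optimal peaks at right, leaving out sequence within 100 bp of other small RNA genes. Points are densities and bars are exact Poisson 95% intervals. For all pooled peaks the density is 286 per Mb inside the genes and 98.0 to 118 per Mb from 301 to 10000 bp.

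The density was higher at ncRNA genes in each of 3 kinds of surroundings. Promoter windows were taken as 1000 bp before and 500 bp after each start of a protein-coding transcript. There, ncRNA genes had 304 summits per Mb (265 to 347), against 125 (121 to 129) in promoter windows elsewhere. In introns it was 220 (182 to 264) against 90.5 (86.7 to 94.4), and outside protein-coding genes 215 (184 to 249) against 88.6 (84.9 to 92.4). For optimal peaks the values were 42.6 against 5.91 per Mb in promoter windows, 20.5 against 2.44 in introns, and 14.8 against 3.64 outside protein-coding genes. In coding exons, 5 summits gave 49.5 per Mb (16.1 to 115) at ncRNA genes, against 82.0 (77.7 to 86.5) elsewhere. On each of the 6 nuclear chromosomes the density was higher at ncRNA genes than elsewhere. It ran from 212 against 74.7 per Mb on V to 290 against 101 on IV. The contrast was smaller on X, with 224 against 118, and on III, with 236 against 121.

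**Figure D2:**
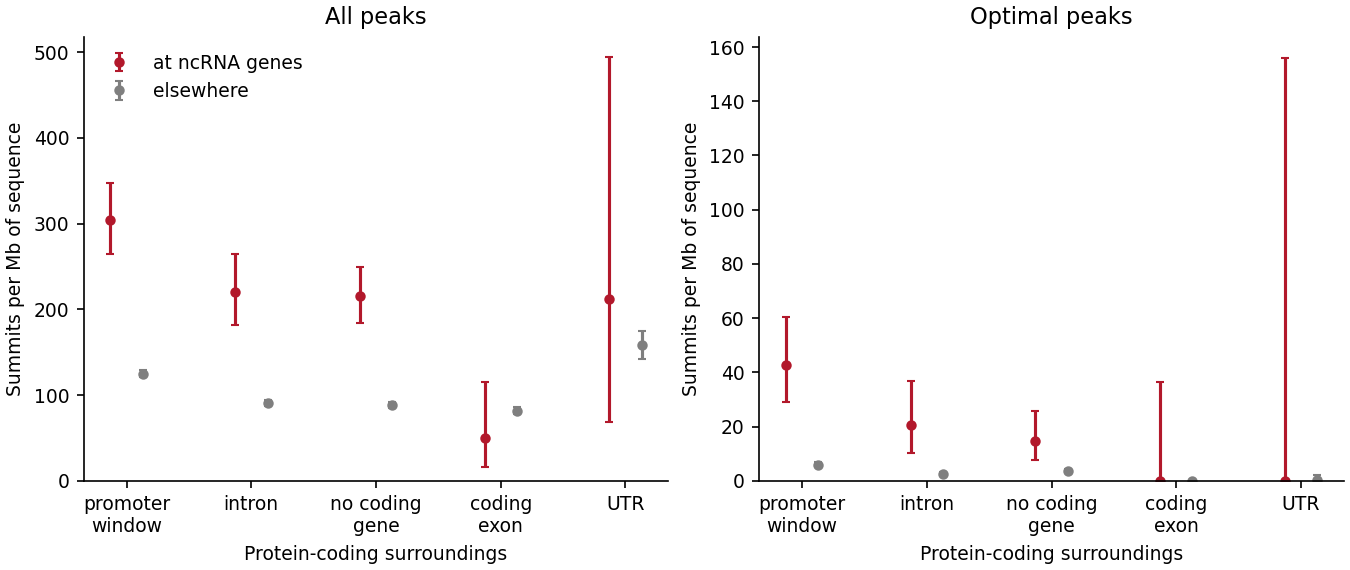
Summits per Mb (vertical axes) at ncRNA genes (red) and elsewhere (grey) by protein-coding surroundings, for all peaks at left and optimal peaks at right. Bars are exact Poisson 95% intervals; red lies above grey without overlap in promoter windows, introns and sequence outside protein-coding genes, and the few coding exon and UTR peaks have wide intervals.

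Peaks at ncRNA genes were stronger than other peaks, and a larger share was in the optimal list. The optimal and rank shares restate the pooled signal, since the optimal list equals a cut on it among nuclear peaks. They are no separate measure of reproducibility. Of the 523 peaks, 54 were optimal, or 10.3% (Wilson 95% interval 8.0% to 13.2%), against 334 of the 9938 other nuclear peaks, or 3.36% (3.02% to 3.73%), and 3.71% of all nuclear peaks. A raised share was not particular to the set: of the 203 summits dropped for another small RNA gene nearby, 43 were optimal. The median pooled signal was 39.6 (quartiles 32.1 and 54.4) at ncRNA genes and 33.3 (29.7 and 40.7) at the others. The highest signal was 359 at an ncRNA gene and 435 elsewhere, so the very top of the list lay outside the set. By rank, ncRNA-gene peaks made up 15.0% of the 100 strongest nuclear peaks, 13.0% of ranks 101 to 500, 7.73% of ranks 1001 to 2500 and 3.15% of ranks 5001 to 10461. The optimal share was 14.0% against 4.72% in promoter windows, 9.32% against 2.70% in introns, and 6.90% (3.99% to 11.7%) against 4.11% (3.35% to 5.03%) outside protein-coding genes, where the intervals overlap. It was 21.4% (12.7% to 33.8%) of the 56 summits inside ncRNA genes on both strands, and 10% (6.84% to 14.5%) of the 239 inside a gene of 1 strand only, intervals that overlap.

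**Figure D3:**
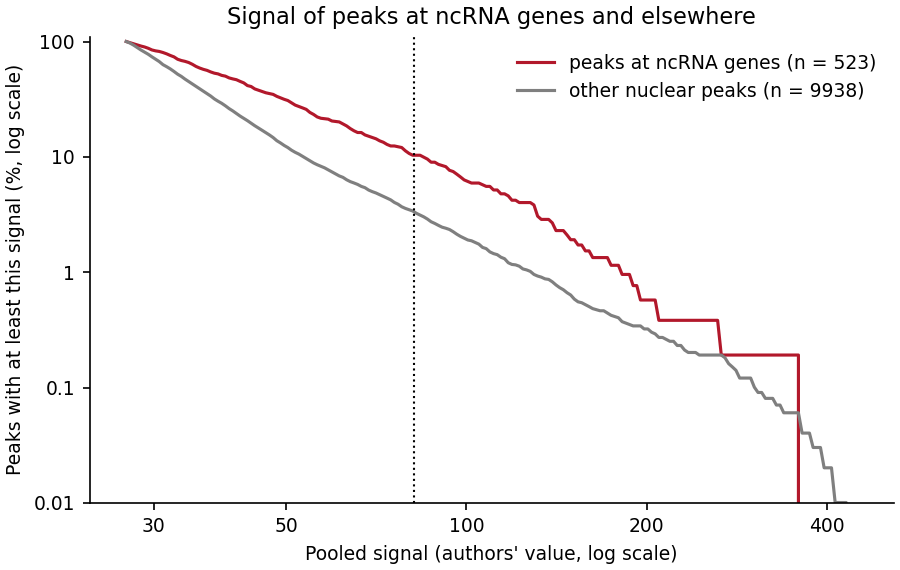
Percentage of peaks (vertical axis, log scale) with at least the pooled signal given on the horizontal axis (authors' value, log scale), for the 523 ncRNA-gene peaks in red and the 9938 other nuclear peaks in grey. The dotted line is the weakest optimal signal of 81.6, which 10.3% of the red and 3.36% of the grey peaks reach.

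Base composition moved with these values. The 101 bp windows at ncRNA-gene summits had a median GC content of 48.5% (quartiles 40.6% and 54.5%), against 37.6% (29.7% and 47.5%) at other summits and 35.4% over the nuclear genome. The ncRNA genes themselves were richer in GC than the genome. Windows at gene centres had a median of 49.5% for the 629 genes with a peak of the set and 43.6% for the 7135 without. Genes without a peak are, here and below, those without a peak of the set. They may include genes near a summit dropped for another small RNA gene. Among windows under 40% GC, 3 of 126 ncRNA-gene peaks were optimal, or 2.38% (0.813% to 6.77%). Of the others 0.714% (0.525% to 0.971%) were, and the intervals overlap. From 40% to under 50% it was 10.9% against 4.75%, and from 50% up 14.4% (10.4% to 19.6%) against 9.56% (8.29% to 11.0%), where the intervals overlap. The part of base composition in the density or the signal was not tested.

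Each replicate list held more than 60% of the pooled peaks at ncRNA genes. A summit within 100 bp was found in replicate 1 for 329 of 523, or 62.9% (58.7% to 66.9%), against 47.5% of other peaks and 48.3% of all. In replicate 2 it was 338, or 64.6% (60.4% to 68.6%), against 61.8% of other peaks and 61.9% of all. Both replicates held 199, or 38.0% (34.0% to 42.3%), against 23.5% of other peaks and 24.2% of all. Replicate 1 alone held 130, replicate 2 alone 139, and neither held 55. The pooled list was made from the same reads, so the replicate lists were also compared with each other directly. By the same rule replicate 1 had 650 ncRNA-gene peaks, of which 29.8% (26.5% to 33.5%) had a summit within 100 bp in replicate 2, against 17.1% (16.5% to 17.8%) of its other peaks. Replicate 2 had 589, of which 32.9% (29.3% to 36.8%) were found in replicate 1, against 16.3% (15.7% to 16.9%) of its other peaks. About 70% of each replicate's ncRNA-gene peaks thus had no partner in the other.

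Signals of the 2 replicates were related over the 199 peaks found in both, with a Spearman rho of 0.620 and a Pearson r of 0.774. Over the 2335 other matched peaks rho was 0.495 and r 0.799. These are descriptions across peaks that share the same libraries. Within the 51 matched optimal peaks rho was 0.485, and within the 148 others 0.232. Of the 51, 24 had the higher value in replicate 1 and 27 in replicate 2, on the scale of each list.

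**Figure D4:**
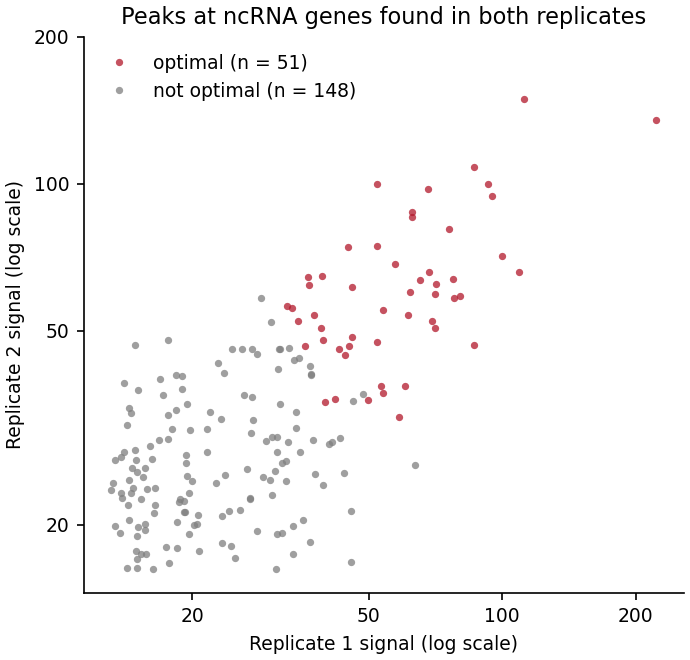
Signal in replicate 2 (vertical axis, log scale) against signal in replicate 1 (horizontal axis, log scale) for the 199 ncRNA-gene peaks found in both, optimal ones in red (n = 51) and others in grey (n = 148). The red points run to the upper right, and the grey ones form a broad cloud at low signal.

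The strongest ncRNA-gene peak lay in an intron of ceh-32 itself. It spanned V, 11704686 to 11704859, with its summit inside W05E10.8 (WBGene00196312, V, 11704765 to 11704901), an ncRNA gene on the strand opposite to ceh-32. The pooled signal was 359, and the replicate signals were 223 (replicate 1) and 135 (replicate 2). This was the highest signal in replicate 1 of any peak in the set, and the second highest in replicate 2. Within 10000 bp of ceh-32 there were 20 nuclear peaks, and 6 of these 20 were optimal, at ncRNA genes or not. Of the 20, 10 were at ncRNA genes, and 4 of these 10 were optimal. The others of the 4 were at W05E10.9 in an intron of the neighbour tre-3, a trehalase gene (signal 207, 86.5 in replicate 1 and 108 in replicate 2), at W05E10.15, 1151 bp upstream of ceh-32 (195, 92.9 and 100), and at W05E10.12, 281 bp upstream (130, 52.1 and 74.6). The worms carried ceh-32 on the transgene as well as in its own place, and reads from the copies cannot be told apart in these files. Without the 10 peaks the optimal share of the set was 9.75%, and the density of optimal peaks 22.8 per Mb (16.9 to 30.1).

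Of the 54 optimal peaks, 31 had their summit in a protein-coding promoter window. The strongest was at F26F4.14 (WBGene00198575, III, 4899802 to 4899950), 597 bp upstream of tag-340, at a pooled signal of 263 (112 in replicate 1, 149 in replicate 2). At F56F3.10 the summit was 253 bp upstream of rps-1, which encodes a protein of the small ribosomal subunit (188, 95 and 94.4). At W06B11.9 it was inside ncRNA genes of both strands, 300 bp upstream of puf-9, which encodes an RNA-binding protein of the Pumilio family (174, 99.9 and 71.0). Both replicates held these 3 peaks, at values above the median of 57.9 (replicate 1) or 58.2 (replicate 2) over the set's optimal peaks.

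The neighbours of 6 further promoter peaks were chosen for description after the values were seen. Gene functions were not counted over the 31 promoter peaks, so no theme of the set can be read from these 6. The peak at Y38A10A.8, where 2 ncRNA models cover the same 150 bp on opposite strands, was 290 bp upstream of crt-1, the gene of the endoplasmic reticulum chaperone calreticulin (signal 114, 61.3 in replicate 1 and 53.7 in replicate 2). At Y38F2AR.17 it was 301 bp upstream of trap-3, a subunit of the translocon-associated complex (110, 53.9 and 55.2). At F54D5.22, again a pair of models on both strands, it was 195 bp upstream of dnj-13, a cochaperone of HSP70 proteins (93.8, 53.2 and 38.4). At C56C10.14 it was 406 bp upstream of icd-1, which encodes the beta subunit of the nascent polypeptide-associated complex (87.1, 53.8 and 37.2). The peak 80 bp from F26D10.23 and 377 bp upstream of hsp-1, a constitutive HSP70 gene, was found in replicate 2 only within 100 bp (95.4 pooled, 53.0 in replicate 2). The peak near C30C11.14 was 207 bp upstream of the proteasome gene rpn-3 (98.0, 36.7 and 61.9).

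A further 4 promoter peaks were also chosen for description after their values were seen. They were F52D10.9 at the 14-3-3 gene ftt-2 (signal 131, 70.8 in replicate 1 and 62.3 in replicate 2), T04C10.8 at the epsin gene epn-1 (131, 86.3 and 46.8), F31F7.6 at the kinase gene mrck-1 (140, 77.7 and 58.2) and F59B10.7, 359 bp upstream of myrf-1, which encodes a membrane-bound transcription factor (93.6, 32.7 and 56.0). The rest had pooled signals from 84.3 to 148. They were at C14F11.14, F08G2.13, T28B11.4, T10B10.11, C08B11.11, F46B6.15, C06A6.14, T26A5.10, C16C2.7, W06H8.14, Y65B4BR.10, C41G11.15, K10C3.9, F38E9.8, W01D2.7, C05G5.8 and T24B8.21.

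Introns held 11 of the set's optimal peaks, or 20.4% (11.8% to 32.9%), against 17.4% (13.7% to 21.8%) of other optimal peaks. T28F4.7 (WBGene00198042, I, 7475046 to 7475283) had its peak 2 bp past its end, in an intron of T28F4.1, at a pooled signal of 180 (109 and 65.9). T25C12.7 lay in an intron of lin-14, the heterochronic gene that times larval fates, on the opposite strand (95.5, 37.7 and 53.8). The other intronic peaks, besides the pair at ceh-32 and tre-3 and those at rpr-1 and R144.16 given with the named RNAs, were at W06H8.16, F09A5.11, F16A11.13, F59G1.12 and T06E8.6, with pooled signals from 88.7 to 161. Among all 199 ncRNA-gene peaks within a protein-coding gene, 136 (68.3%) had the nearest ncRNA gene on the opposite strand. Of the ncRNA genes without a peak of the set whose centre is in a protein-coding gene, 67.5% were on the opposite strand.

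Outside promoter windows and protein-coding genes there were 12 of the set's optimal peaks. They made up 22.2% (13.2% to 34.9%), against 26.3% (21.9% to 31.3%) of other optimal peaks. The peak at F56A12.8 was 6327 bp upstream of unc-39, the nearest protein-coding start, which encodes another sine oculis homeodomain protein (signal 131, 68.3 in replicate 1 and 65.8 in replicate 2). At F13D11.7, with 3 ncRNA genes within 100 bp, the nearest coding start was 6274 bp away (139, 77.4 and 63.8). C34E11.9 was found in replicate 1 only (93.2 pooled, 94.2 in replicate 1), and H01A20.4 in replicate 2 only (91.0 pooled, 53.8 in replicate 2). W05E10.15 was given above. The others were at C02B4.13, WBGene00220175, Y15E3A.8, C14F5.10, F44E5.16, F28C1.14 and R03E9.10, with pooled signals from 85.1 to 132. Of the set's 54 optimal peaks, both replicate lists held 51, or 94.4% (84.9% to 98.1%). For other optimal peaks it was 91.3% (87.8% to 93.9%).

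Few ncRNA genes have names, and 14 with a family symbol were looked up. The RNA of ribonuclease P, which trims the leader of precursor tRNAs, is encoded by rpr-1 (WBGene00045238, I, 13463955 to 13464207), in an intron of ints-8. A peak lay 45 bp upstream of it, at a pooled signal of 153 (62.7 in replicate 1, 87.6 in replicate 2), and was optimal. The related mrpr-1, for the RNA of ribonuclease MRP, had a summit inside the gene with a signal of 52.1 (26.9 and 22.6), below the optimal list. Of the 5 srpr genes, for the RNA of the signal recognition particle that targets proteins to the endoplasmic reticulum, 4 had a peak. At srpr-2.2 the summit was 32 bp away and inside R144.16 (107, 45.8 and 61.5), and this peak was optimal. At srpr-2.1 the signal was 78.3, and 45.2 in replicate 1, with no summit within 100 bp in replicate 2. At srpr-1.1 it was 54.1 (16.9 and 39.8) and at srpr-1.2 it was 31.5. The srpr genes are near-identical copies, so reads may be split between them: all of the 31-base words in the window at srpr-2.1 occur again in the genome. The nearest summit to srpr-3 was 527 bp away.

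The other named RNAs had no optimal peak. The tts-1 gene, for a ribosome-associated RNA abundant in dauer larvae, had a summit inside with a signal of 43.9, found in replicate 1 alone (23.3). The summits inside linc-171 and lfor-2 had 29.8 and 27.7, found in replicate 2 alone. The nearest summits to rncs-1, for a starvation-induced RNA that competes for Dicer, and yrn-1, a Y RNA gene, were 500 and 2903 bp away. Those of tts-2 and lfor-1 were 143 and 1444 bp away. So 9 of the 14 had a peak in the set, and 2 of these 9 were optimal. The 5 srpr and 2 lfor genes were chosen after their values were seen. They gave 4 and 1 of the 9, and srpr gave 1 of the 2 optimal. Over all ncRNA genes 8.10% had a peak, with 12.2% for 200 to 300 bp and 22.8% over 300 bp. An optimal peak was at 0.927% of all.

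Of the 7764 ncRNA genes, 629 had at least 1 peak of the set within 100 bp, or 8.10% (7.52% to 8.73%), and 72 had an optimal one, or 0.927%. The share was higher for longer genes. It was 3.83% for genes up to 100 bp, 7.55% for 100 to 150 bp, 12.2% for 200 to 300 bp and 22.8% for genes over 300 bp. The median length was 149 bp for genes with a peak and 139 bp for those without. Genes overlapped by an ncRNA gene on the other strand had a peak in 9.62% of cases (8.51% to 10.9%), against 7.41% (6.74% to 8.14%) of the others. For optimal peaks it was 1.45% (1.04% to 2.00%) against 0.692% (0.503% to 0.953%). Only W06H8.5, of 2525 bp, and C30E1.9, of 14770 bp, had 3 peaks each. Their signals were 34.9 to 63.0 and 32.4 to 44.1, all below the optimal list.

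Summits were found along the ncRNA genes and on both sides of them. Whether they gather at the genes' starts cannot be resolved here. The genes' median length was 149 bp and the usual peak width was 420 bp. Only 49.1% (replicate 1) and 53.7% (replicate 2) of the peaks had a replicate summit within 50 bp. For the 56 summits inside genes on both strands, the shorter gene, or the first by identifier, gave the 5′ end. Of the 523, 295 lay inside (56.4%), 119 upstream (22.8%) and 109 downstream (20.8%) of the nearest gene. Inside, the median position was 44.3% of the gene's length from its 5′ end, with quartiles at 21.3% and 71.2%. Beside the gene, the median distance was 43.0 bp. Relative to protein-coding genes, 356 of 523 summits (68.1%, 64.0% to 71.9%) were upstream of the nearest start, against 47.7% (46.8% to 48.7%) of other peaks. This share was not taken for ncRNA genes without a peak, so the part of where ncRNA genes sit was not tested. The median distance to that start was 1219 bp, against 1079 bp for other peaks, and 725 bp for the optimal ncRNA-gene peaks.

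The X chromosome held 158 of the 523 peaks, or 30.2% (26.4% to 34.3%), against 20.1% of other peaks. It also holds 32.5% of all ncRNA genes, a value inside that interval, and 7.82% of its ncRNA genes had a peak, within the range of 7.25% to 9.83% over the chromosomes. Chromosome V held 18.5% of the peaks, IV 17.0%, II 12.8%, I 11.9% and III 9.56%. Only 5 of the peaks, or 0.956%, were in coding exons away from promoter windows, against 13.6% of other peaks. Of the ncRNA genes without a peak of the set, 3.15% have their centre there, against 1.11% of those with such a peak.

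Of the 5 motifs searched, GAGAGA was the most frequent at these summits. GAGAGA or TCTCTC was in the 101 bp window of 127 of the 523 summits, or 24.3% (20.8% to 28.1%), and in 7.27% (5.34% to 9.82%) of windows 400 bp away. At other peaks it was 9.14% (8.59% to 9.72%) at summits and 5.79% away, and 9.89% of all nuclear summits held it. The share was 35.2% (23.8% to 48.5%) at the 54 optimal ncRNA-gene peaks and 26.9% (22.5% to 31.9%) at the 334 other optimal peaks, intervals that overlap. It was 20.4% in promoter windows, 22.9% in introns and 31.0% outside protein-coding genes, against 10%, 7.62% and 11.9% at other peaks of the same classes. In windows of 50% GC and more it was 27.9% (22.4% to 34.2%), against 16.3% (14.7% to 18.1%) at other peaks. The ncRNA genes without a peak of the set held the hexamer within 50 bp of their centre in 12.8% of cases (12.0% to 13.6%). Those with such a peak held it in 24.6% (21.4% to 28.2%). Among ncRNA-gene peaks with the hexamer 15.0% (9.79% to 22.2%) were optimal, against 8.84% (6.42% to 12.0%) of those without it, intervals that overlap.

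TGATAC or its complement was in 13 windows, or 2.49% (1.46% to 4.21%), against 2.10% 400 bp away and 2.87% at other summits. Among the 54 optimal peaks 4 held it, or 7.41% (2.92% to 17.6%), against 2.40% (1.22% to 4.65%) of other optimal peaks, with overlapping intervals. TGATAA, the site of endodermal zinc-finger factors such as ELT-2, was in 2.49% (1.46% to 4.21%) of windows at ncRNA-gene summits and 8.60% (6.49% to 11.3%) of those 400 bp away. At other peaks TGATAA was in 7.24% of windows at summits and 9.17% of those away. At optimal peaks it was in 1.85% at summits and 5.56% away in the set, and 2.69% and 7.78% elsewhere. TAATTA, a homeodomain core, was in 4.02% at summits and 4.78% away, against 6.47% and 4.77% at other peaks. The B box core GTTCGANNC of genes transcribed by RNA polymerase III was in 2 of 523 windows (0.382%, 0.105% to 1.38%), against 1.66% of other summits, a group that includes the peaks at tRNA genes. All motifs were read on both strands, and none of these patterns contains another. A match describes letters in the window and is no evidence of a bound site.

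**Figure D5:**
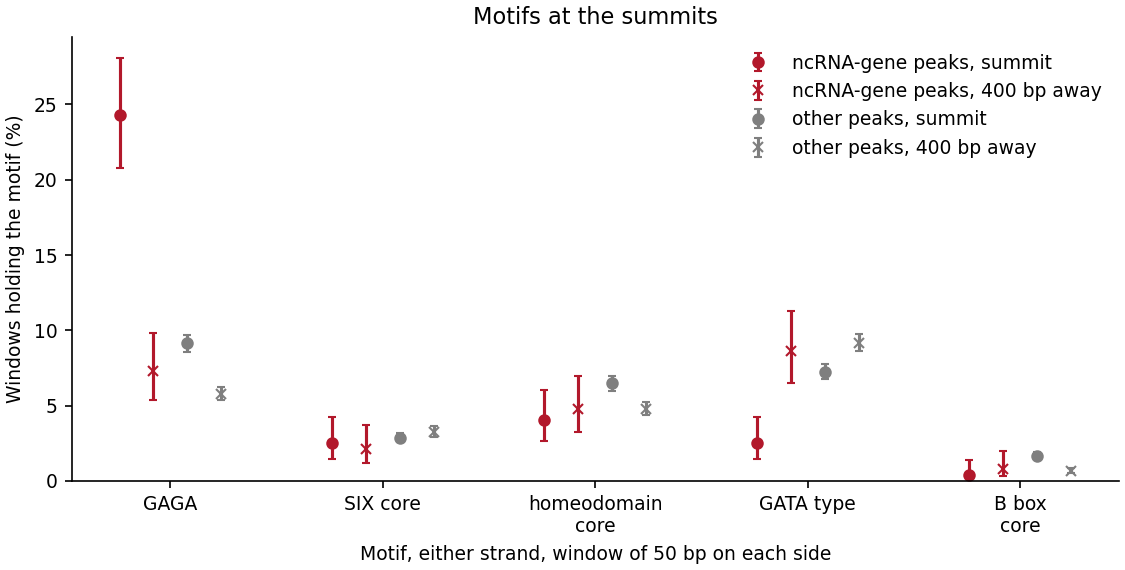
Percentage of 101 bp windows holding each motif on either strand (vertical axis), at summits (circles) and 400 bp away (crosses), for the 523 ncRNA-gene peaks in red and the 9938 other nuclear peaks in grey. Bars are Wilson 95% intervals; GAGAGA stands at 24.3% at ncRNA-gene summits, and the other 4 motifs are at or below 10% in all groups.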

How the data were processed

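Sonicated chromatin of whole L4 worms was immunoprecipitated through GFP in 2 biological replicates, per the labels' protocols. The authors deposited peak lists on ce10 and ce11. Per the deposited file records, the pooled list derives from both replicates' alignments and 1 control alignment, and the optimal list from the replicate and pooled lists. For the peak caller, its settings and the normalization, no source used here gives a name. The signal of each peak was deposited by the authors and used as it stands, within a list. Only ce11 lists were used. Their build is that of the reference (WBcel235, Ensembl release 115, and its RefSeq sequence).

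Summits were column 2 plus column 10 plus 1, on the 6 nuclear chromosomes. A peak was found in a replicate when that list had a summit within 100 bp. Promoter windows took precedence over coding exons, UTRs and introns. Motif windows were 101 bp, and comparison windows lay 400 bp away on a seeded side. Intervals are Wilson for shares and exact Poisson for densities, at the 95% level, and cover counting error only. There was 1 group, so no test between conditions was made, and shares were set beside those of other nuclear peaks without a test.

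The members, motifs and lists were chosen with earlier results of these data known. Named peaks were all optimal members, genes with 3 or more members, the ncRNA families looked up and the peaks at the 100 bp limit. The 10 strongest members below the optimal list are given in the closing section. Of the families, srpr and lfor were chosen after their values were seen, and the prefixes sls, smy, anr, lep, sbRNA, asRNA and rrn had no gene of this biotype. The step that picks members, reads motifs and matches summits was tested on simulated data. Work was done in Python 3.11.15 (numpy 2.4.6), with pandas 2.3.3 for tables, SciPy 1.17.1 for intervals and matplotlib 3.10.9 for figures.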

Additional observations from a re-analysis of the deposited data

How the results depend on the processing

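Of 100 recomputed values, 65 stayed within the 95% interval of the reported one (a count of genes, within 1.5 times). The optimal share of 10.3% was 7.31% with ncRNA genes within 500 bp, 13.4% without the exclusion of other small RNA genes, 15.4% among the 5000 strongest peaks and 7.62% outside promoter windows. The share found in replicate 1 was 56.5% within 500 bp and 73.5% among the 5000 strongest. That in replicate 2 was 69.3% without the exclusion and 73.8% among the 5000 strongest. Matching summits within 50 bp gave 49.1% and 53.7%, within 200 bp 73.2% and 74.8%, and any overlap 77.8% and 79.2%, for replicates 1 and 2. Starting from the list of 1 replicate, 32.9% were found in replicate 1 and 29.8% in replicate 2, GAGAGA was in 18.7% to 19.8% of windows and median GC was 45.5% to 46.5%. In these single lists GAGAGA was in 8.72% (replicate 1) and 7.49% (replicate 2) of other windows.

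The median percentile of signal, 71.4, was 60.5 within 500 bp and 79.0 without the exclusion. The Spearman correlation of the replicates' signals was 0.519 with summits matched within 200 bp. The share inside genes was 28.0% within 500 bp, by construction, and 60.7% among the 5000 strongest. The share of the set in promoter windows was 42.3%, against 39.4% of other peaks. It was 26.6% with windows from 500 bp upstream to 100 bp downstream. GAGAGA was in 17.9% of windows within 500 bp and 28.2% among the 5000 strongest, and in 13.2% and 39.2% of windows of 25 and 100 bp on each side. Median GC was 50.5% inside genes only, 43.6% within 500 bp, 46.5% outside promoter windows and 46.8% with 100 bp on each side. Counting only summits inside the gene, 340 ncRNA genes had a peak in place of 629. Where no construction shows it, the cause was not tested. Leaving out the peaks within 10000 bp of ceh-32, a setting added after the data were seen, kept each of the 10 values it was tried on within its interval. No paired analysis was possible because there was 1 group.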

Other observations

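The 10 strongest ncRNA-gene peaks below the optimal list had pooled signals from 77.9 to 80.8, just under its weakest nuclear peak of 81.6. They were at F25D1.10, C54H2.10, F10G8.11, C23H4.10, R160.8, F47F6.13, F54H12.9, srpr-2.1, C02F4.10 and C05B10.19. F47F6.13 lay in an intron of lin-42, the worm relative of the clock gene period, on the opposite strand (signal 79.0, 30.1 in replicate 1 and 52.1 in replicate 2). F54H12.9 lay 31 bp upstream of eef-1B.1, a translation elongation factor gene (78.9, 37.1 and 40.6). C23H4.10 lay 156 bp upstream of cab-1 (79.6, 34.8 and 43.9). Of these 10, srpr-2.1 was without a summit in replicate 2, and the other 9 were found in both replicates.

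The 203 summits near an ncRNA gene that were left out for another small RNA gene nearby included 43 optimal peaks. Over all 726 summits before the exclusion the optimal share was 13.4%, against 10.3% in the set and 3.71% of all nuclear peaks. Windows with a 31-base word that occurs again in the genome made up 3.06% (1.89% to 4.91%) of those at ncRNA genes, against 7.35% (6.85% to 7.88%) at other peaks. Among the optimal ncRNA-gene peaks this was 2 of 54, at C14F11.14 and R144.16. The 7 ncRNA-gene peaks narrower than the usual width of 420 bp were all optimal, as were all 54 such peaks among the other nuclear peaks. The narrowest at an ncRNA gene spanned 107 bp at F09A5.11.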
